A study of Drosophila melanogaster with 4 samples.

Results

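Quasimodo is an endogenous retrovirus of *Drosophila melanogaster*, a long terminal repeat (LTR) retrotransposon of the gypsy group that carries an envelope (env) gene besides gag and pol. It was 1 of 124 transposons, among 150 reference sequences, to which direct RNA reads of fly ovaries and of ovarian somatic cells had been assigned. All positions listed under its name were taken in each of the 4 libraries, and the reads ending there were summed and mapped along its 7386 nt consensus. The element was chosen by its read totals in these same libraries, which were larger after knockdown, so its totals and folds are a description here and no test of them is given.

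Each group had 1 library. The first pair were whole ovaries of Tj-GAL4>vretenoGD flies, in which a hairpin against *vreteno* was expressed, and of Tj-GAL4>arrestin2GD flies, in which the hairpin targeted *arrestin2*. Both carry the Tj-GAL4 driver, which is active in somatic cells of the ovary, so the germline cells of these whole ovaries lie outside the knockdown. The second pair were OSCs, a cultured line of ovarian somatic cells labelled as somatic follicle cells, given siPIWI or siGFP. Transposon reads numbered 5156 in vreteno knockdown ovaries, 2382 in arrestin2 control ovaries, 164243 in siPIWI OSCs and 57045 in siGFP OSCs. The knockdown of *vreteno* and *piwi* mRNA and the markers of the cell types were not analysed here, since the files hold reads on a fixed set of transposons, repeats and a few other sequences, and no levels of these genes were taken from them.

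In the somatic cells of the fly ovary, retroviruses of this group are silenced by piRNAs, small RNAs that guide the Argonaute protein Piwi to matching nascent RNA in the nucleus. Vreteno is a Tudor-domain protein needed to make these piRNAs. The genomic RNA of an LTR element starts in the 5' repeat and is cut and polyadenylated in the 3' repeat, and the env protein is made from a spliced RNA with the same 3' end. A direct RNA read begins at the poly(A) tail, so its 3' end on the consensus marks where the RNA was polyadenylated or captured. The positions counted here were taken to be such 3' ends, which the sources used here do not state. The files hold no sequence letters, and none are shown.

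Quasimodo made up a larger share of transposon reads in each knockdown library than in its control. By reads it ranked 44th of 124 transposons in control ovaries and 20th in siGFP OSCs. It had 24 reads in vreteno knockdown ovaries, against 4 in arrestin2 control ovaries. It had 697 reads in siPIWI OSCs, against 88 in siGFP OSCs. As shares of transposon reads these were 0.465% in vreteno knockdown ovaries (exact 95% interval 0.298 to 0.692) and 0.168% in control ovaries (0.0458 to 0.429). In OSCs they were 0.424% with siPIWI (0.394 to 0.457) and 0.154% with siGFP (0.124 to 0.190). The intervals of the 2 ovary libraries overlapped and those of the 2 OSC libraries did not. All intervals cover counting error only and compare libraries, not conditions. In such bulk samples, fewer cells of a type and less RNA per cell cannot be told apart.

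**Figure D1:**
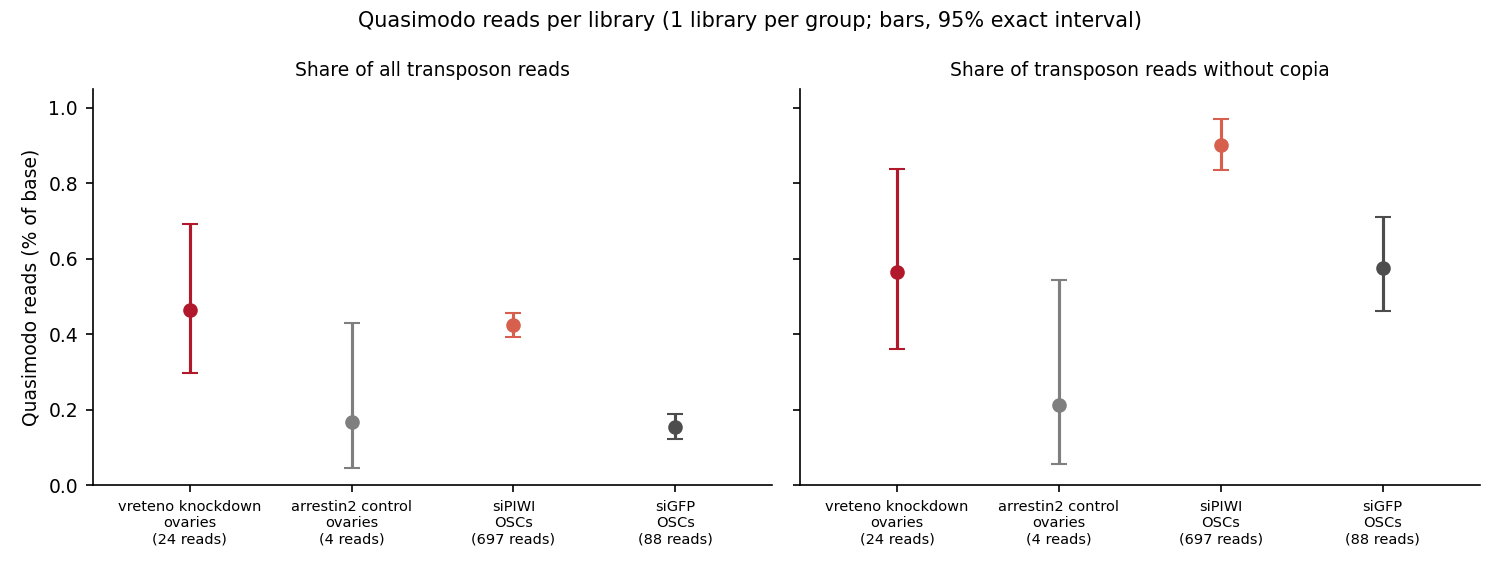
Quasimodo reads in each library as a percentage of all transposon reads (left) and of transposon reads without copia (right), with exact 95% intervals as bars and 1 library per group. In both panels each knockdown library lies above its control. The ovary intervals overlap in both panels, and the OSC intervals overlap in neither.

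The retrotransposon copia took most reads of the OSC libraries, so its level weighs on every share there. Without copia reads, Quasimodo held 0.564% in vreteno knockdown ovaries (0.362 to 0.838) and 0.212% in control ovaries (0.0579 to 0.543). On the same base it held 0.901% in siPIWI OSCs (0.836 to 0.971) and 0.576% in siGFP OSCs (0.463 to 0.710). The ratio of the shares in OSCs was thus 2.75 on all transposon reads and 1.56 without copia (1.25 to 1.98), and both lay above 1.

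For folds between the libraries of a pair, the knockdown library was scaled by a median ratio, taken over those transposons that reached 10 reads in each library of the pair. Quasimodo was then 6.64-fold higher in vreteno knockdown ovaries than in control ovaries (95% counting interval 2.28 to 26.3) and 3.99-fold higher in siPIWI than in siGFP OSCs (3.19 to 5.04). The error of the scaling itself multiplies these folds by 0.845 to 1.19 for ovaries and by 0.754 to 1.28 for OSCs. Scaled instead to total transposon reads, the ovary fold was 2.77 with an interval of 0.952 to 11.0, which includes 1. The OSC fold on that base was 2.75 (2.20 to 3.47). The difference of the log2 folds, OSC minus ovary, was -0.74 with an interval of -2.75 to 0.84, so at the depth of the ovary libraries no difference between the comparisons was detectable.

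Quasimodo stood among the elements with larger folds, without being at the top. Ranks and counts past 4-fold used log2 ratios after 1 read had been added to both scaled counts, a step that lowers the ratio of elements with few reads. Of 45 transposons with at least 10 reads in either ovary library, 24.4% were at least 4-fold higher in vreteno knockdown ovaries on that scale, and Quasimodo ranked 11th. Of 73 such transposons in OSCs, 24.7% were at least 4-fold higher with siPIWI. There Quasimodo ranked 19th with a log2 ratio of 1.99, just under the 4-fold mark at 2. An element could reach the minimum in the knockdown library alone, as Quasimodo did in ovary, so the minimum itself weighs on these percentages. Without a read minimum, 13 of 124 transposons in ovary and 18 of 124 in OSCs were at least 4-fold higher. The median log2 ratio over all elements that passed the minimum was 0.26 in ovary and 0.29 in OSCs. Among 9 listed gypsy-group elements with env that passed the minimum in ovary, the median log2 ratio was 1.99 and Quasimodo came 4th at 2.45. The median element was gypsy6, with 10 reads against 2. Like Quasimodo and others of the 9, it passed only through the knockdown library, so the minimum itself weighs on this median. In folds without the pseudocount, springer, a related env-carrying retrovirus and next above Quasimodo in order, was at 28.3 (16.9 to 51.0). Next below was gypsy6 at 5.54 (1.18 to 52.0). Among 13 such elements in OSCs Quasimodo was itself the median. There too some elements, such as Idefix with 35 reads against 1, passed only through the knockdown library. Idefix was next above at 17.6 (2.96 to 716) and '17.6' next below at 3.84 (2.57 to 5.97), and both intervals included the fold of Quasimodo. Over all listed elements besides Quasimodo, with those just named counted too, the intervals of 2 in ovary and 4 in OSCs included its fold. The exact rank of Quasimodo is therefore not resolved.

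The order of levels among these relatives was read per kilobase of consensus. A direct RNA read begins at the poly(A) tail whatever the length of the element, so the division by length can itself change the order. By reads alone, '297' lay just below Quasimodo in vreteno knockdown ovaries (23 against 24) and in siGFP OSCs (87 against 88). In vreteno knockdown ovaries Quasimodo had 3.25 reads per kb (2.08 to 4.83) and came 6th of the 17 listed elements. Its neighbours '297', at 3.29 (2.08 to 4.93), and rover, at 3.11 (1.97 to 4.67), did not differ from it beyond counting error. In control ovaries it had 0.542 reads per kb (0.148 to 1.39), 7th in order, with gypsy at 0.669 (0.217 to 1.56) and Idefix at 0.406 (0.0836 to 1.19) on either side, again within counting error.

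In OSCs the distances were larger. With siPIWI Quasimodo had 94.4 reads per kb (87.5 to 102) and came 4th, far below '297' at 473 (457 to 489) and above '17.6' at 27.7 (24.0 to 31.7). With siGFP it also came 4th, at 11.9 reads per kb (9.56 to 14.7). There '297' was level with it at 12.4 (9.96 to 15.3), and '17.6' was lower at 3.63 (2.39 to 5.28). Quasimodo and '297' thus had 697 and 3306 reads with siPIWI, against nearly equal numbers, 88 and 87, with siGFP.

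Cultured cells and whole ovaries could not be placed on a common scale. Of all transposon reads, Quasimodo took a nearly equal share in siGFP OSCs and in control ovaries, a ratio of 0.919 (0.346 to 3.45). Without copia the ratio was 2.71 (1.02 to 10.2), and with the median scaling over 26 transposons it was 16.9 (6.37 to 63.4). The level in OSCs relative to ovaries therefore rests on the base chosen. The same held between the knockdown libraries, where the ratio of siPIWI OSCs to vreteno knockdown ovaries was 0.912 on all transposon reads (0.608 to 1.43), 1.60 without copia (1.06 to 2.51) and 6.80 with the median scaling (4.53 to 10.7).

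Reads ended in a pair of clusters, close to the 3' end of the element and again about 1 repeat length from its start. To tell the terminal repeats apart, the distance was sought at which upstream end positions coincide best with downstream ones. An offset of 6727 nt paired 147 reads over the 4 libraries, and the next best offset paired 56. If the consensus runs from the first base of one repeat to the last base of the other, as an LTR element does, this offset gives repeats of 659 nt. The 5' repeat then spans positions 1 to 659, the body 660 to 6727 and the 3' repeat 6728 to 7386. Annotated insertions within 2 nt of this length were then sought. Of the 41 Quasimodo insertions annotated in the reference genome (BDGP6), 2 are 659 and 660 nt long, the size of 1 repeat. Only that length was sought and no sequence was available, so whether these fragments are terminal repeats was not tested.

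**Figure D2:**
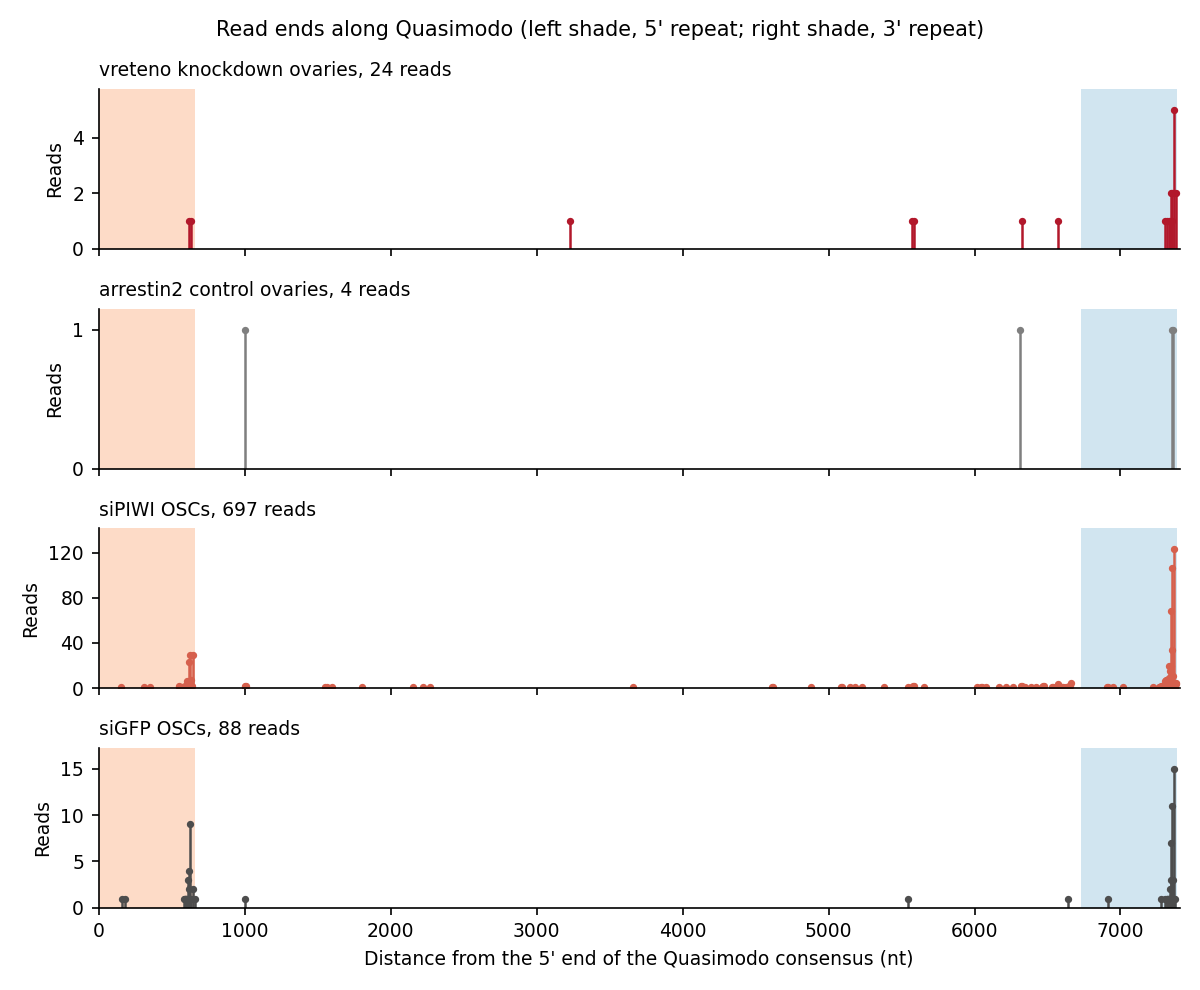
Number of reads ending at each position of the Quasimodo consensus (x axis, distance from its 5' end in nt) in the 4 libraries, each with its own y axis; the left shade marks the 5' repeat and the right shade the 3' repeat. Ends pile up near the end of the 3' repeat in the libraries with 24, 697 and 88 reads, with a smaller pile near the end of the 5' repeat that is clearest in the OSC libraries.

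Most reads ended in the 3' repeat, where the poly(A) site of an LTR element lies. In vreteno knockdown ovaries 17 of 24 reads did so, or 70.8% (48.9 to 87.4), against 2 of 4 reads in control ovaries. In siPIWI OSCs 497 of 697 reads did so, or 71.3% (67.8 to 74.6), against 54 of 88, or 61.4% (50.4 to 71.6), in siGFP OSCs. The intervals of the OSC libraries overlapped, and the shares of both knockdown libraries were nearly equal. Over 98% of these ends lay in the last 110 nt, with 491 of 497 in siPIWI and 53 of 54 in siGFP OSCs.

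Within the 3' repeat the ends were centred alike in every library with more than 4 reads. The median end lay 33 nt before the end of the consensus, and the quartiles 16 and 43 nt before it, in vreteno knockdown ovaries, siPIWI OSCs and siGFP OSCs alike. Position 7370 was the most used in all 3, with 5 reads in vreteno knockdown ovaries, 123 in siPIWI OSCs and 15 in siGFP OSCs. It took 20.8%, 17.6% and 17.0% of the Quasimodo reads of these libraries. Position 7353 came next in OSCs, with 106 reads in siPIWI and 11 in siGFP OSCs, followed by position 7343, with 68 and 7. These 3 positions held 297 of the 497 ends in the 3' repeat with siPIWI, over 37 positions used, and 33 of 54 with siGFP, over 19. Of the 17 positions used in vreteno knockdown ovaries, 16 were also used in siPIWI OSCs, with 697 reads at 116 positions. In siGFP OSCs, with 88 reads, 9 of the 17 were used, so the larger overlap was with the library of more reads. Of the 38 positions used in siGFP OSCs, 30 were used in siPIWI OSCs, and these 30 held 80 of the 88 siGFP reads. In all of these libraries most ends lay near the end of the 3' repeat. How much overlap this crowding and the read numbers alone would give was not tested, so the counts are a description.

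In siPIWI OSCs the ends of Quasimodo were more spread out than those of most of its relatives. Of 11 listed elements with at least 50 reads in siPIWI OSCs, it had the lowest share at a single position, 17.6% (14.9 to 20.7). The intervals of 8 of the other 10 lay wholly above, among them '297' at 25.5% (24.0 to 27.0), gypsy at 27.3% (26.5 to 28.1) and springer at 29.2% (28.7 to 29.7). Those of opus and gypsy5 overlapped it. Over all 44 transposons with that many reads, 7 had a lower share, so the spread is not particular to Quasimodo. A further 29 siPIWI reads ended at the matching site of its 5' repeat and are not in its share. Such reads were not counted for the other elements. In siGFP OSCs its share of 17.0% (9.87 to 26.6) was the lowest of 4 listed elements, but the intervals of gypsy, springer and '297' all overlapped it. In siPIWI OSCs the main position of Quasimodo also lay nearer the end of its consensus, 16 nt away, than those of the 9 other listed elements whose main position was in the downstream part, which lay 82 to 209 nt away. Nearness to the end is not particular to Quasimodo. Of the 5 elements named below as most like it in reads, the I-element (2 nt) and flea (6 nt) lay nearer in siPIWI OSCs. Stalker (23 nt), blood (45 nt) and Stalker2 (59 nt) lay farther. In siGFP OSCs Quasimodo was not nearer than '297', whose main position there, with 22 of 87 reads, was the last of its consensus. How far each consensus extends past the poly(A) site was not analysed here.

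**Figure D3:**
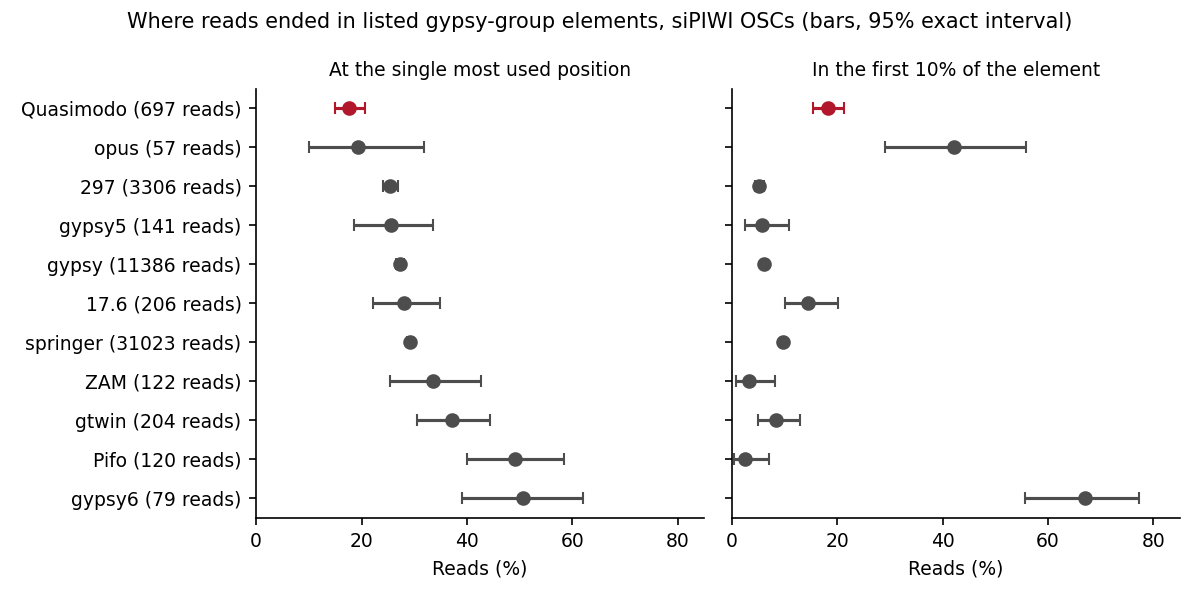
Share of reads at the most used position (left) and in the first 10% of the element (right) for the 11 listed gypsy-group elements with at least 50 reads in siPIWI OSCs, with exact 95% intervals. Quasimodo, in red, is lowest on the left at 17.6% and after gypsy6 and opus the highest on the right, at 18.2%.

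A second set of reads was placed in the 5' repeat. In siPIWI OSCs these were 127 reads, 18.2% of all (15.4 to 21.3), and in siGFP OSCs 31 reads, 35.2% (25.3 to 46.1). In vreteno knockdown ovaries there were 2 such reads and in control ovaries 0 of 4, which allows a share of up to 60.2% by the exact interval. In siPIWI OSCs 121 of the 127 reads had an end position whose partner 6727 nt downstream was also used, and in siGFP OSCs 26 of 31. The offset had been chosen to pair such ends, so these counts describe the pairing and are no separate support for it. A read that lies wholly within a repeat matches both copies, and read lengths are not part of the values used here. The placement of such reads between the repeats therefore cannot be told apart from RNA that truly ends in the 5' repeat.

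**Figure D4:**
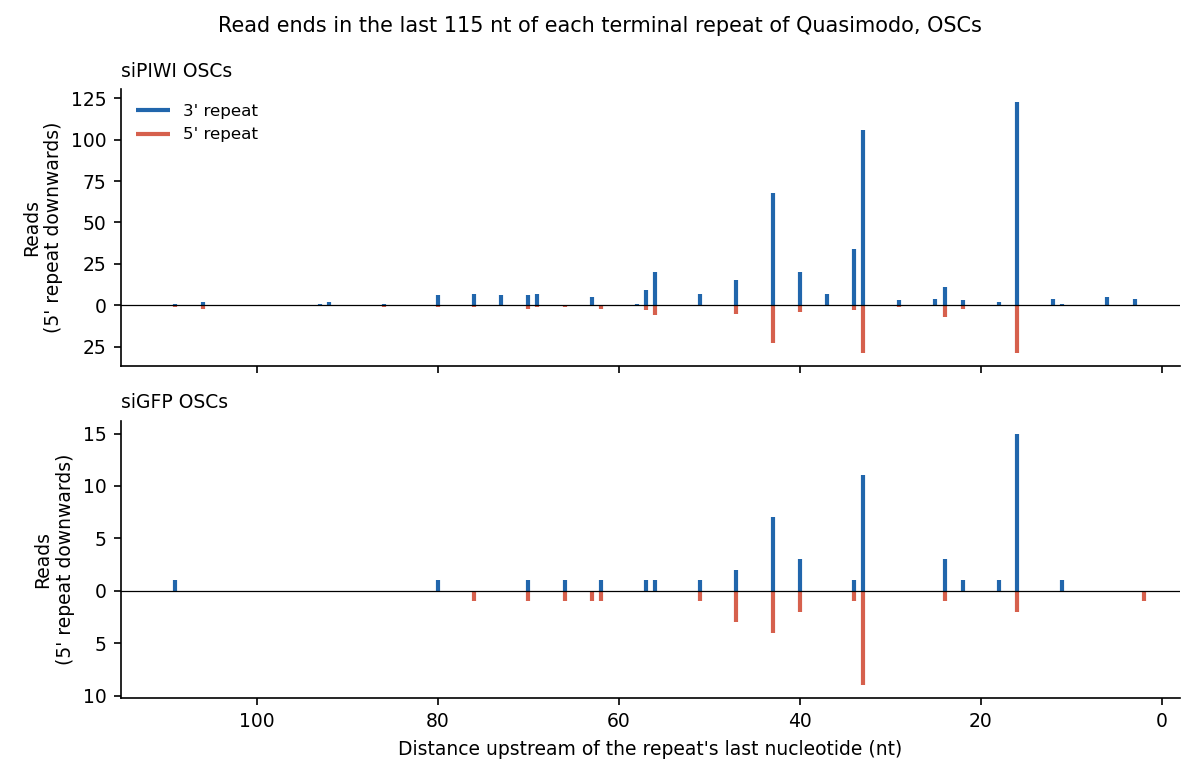
Reads ending in the 3' repeat (blue, upwards) and in the 5' repeat (red, downwards) of Quasimodo in OSCs, against the distance in nt upstream of the last nucleotide of the repeat. Ends at 16, 33 and 43 nt lead in the 3' repeat and also occur in the 5' repeat; at 33 nt the 5' and 3' repeats hold 29 and 106 reads in siPIWI and 9 and 11 in siGFP OSCs.

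The division between the repeats differed between the OSC libraries. Of reads in either repeat, 20.4% were in the 5' copy with siPIWI (17.3 to 23.7) and 36.5% with siGFP (26.3 to 47.6), and these intervals did not overlap. Of the 5 most used sites of the 3' repeat and their partners, 4 had a larger 5' share with siGFP and 1 with siPIWI. Some of these rest on very few siGFP reads. Position 7352 and its partner had 1 read each, and position 7346 and its partner had 3 and 2. The 5' share at position 626 and its partner 7353 was 21.5% with siPIWI (14.9 to 29.4) and 45.0% with siGFP (23.1 to 68.5). At position 643 and its partner 7370 it was 19.1% with siPIWI (13.2 to 26.2) and 11.8% with siGFP (1.46 to 36.4), the 1 site in that direction. The intervals of the OSC libraries overlapped at all 5 sites, so no single site resolved the difference.

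The lower share near the start with siPIWI was seen in other elements too. Of 27 transposons that reached 50 reads with siPIWI and with siGFP alike, 22.2% had a smaller share of ends in the first 10% of the element with siPIWI, with separate intervals. These 6 were Quasimodo, gypsy, springer, '297', copia and flea, and 0 of 27 had a larger share. Gypsy had 6.18% of its ends there with siPIWI (5.75 to 6.64) and 34.0% with siGFP (29.2 to 39.0). In siGFP OSCs the 35.2% of Quasimodo (25.3 to 46.1) was the highest of the 27, where the median was 2.25%. Its interval overlapped those of others, among them gypsy, 1360 at 31.4% (22.7 to 41.2) and roo at 27.4% (18.2 to 38.2).

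Ends in the body of the element were few, and most lay in its downstream part. In siPIWI OSCs 73 of 697 reads ended in the body, 10.5% (8.30 to 13.0), against 3 of 88, 3.41% (0.709 to 9.64), in siGFP OSCs. The intervals overlapped. In vreteno knockdown ovaries 5 of 24 reads did so, against 2 of 4 in control ovaries. In siPIWI OSCs 43 of the 73 lay in the last 1000 nt of the body, the part just before the 3' repeat, and 30 in the 5068 nt upstream of it. The most used body position was 6658, with 5 reads, followed by 6570, with 4 reads in siPIWI OSCs and 1 in vreteno knockdown ovaries. Position 1003, in the upstream part, was used in 3 libraries, with 2 reads in siPIWI OSCs and 1 each in control ovaries and siGFP OSCs.

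When reads were counted by the region where their ends were placed, scaled reads in siPIWI OSCs were higher in the 3' repeat, the body and the 5' repeat alike. The fold was smallest in the 5' repeat. Reads within a repeat match both copies, so the folds of the 5' and 3' repeats depend on how such reads were placed. These folds rest on the same counts as the division between the repeats above. Reads in the 3' repeat were 4.64-fold higher (3.50 to 6.26), those in the body 12.3-fold (4.03 to 60.8, 73 against 3 reads) and those in the 5' repeat 2.06-fold (1.38 to 3.16). The intervals of the 3' and 5' repeats did not overlap. With scaling to total transposon reads the 5' repeat fold was 1.42 with an interval of 0.955 to 2.18, which includes 1, while those of the 3' repeat, at 3.20 (2.41 to 4.32), and the body, at 8.45 (2.78 to 41.9), stayed above it. In ovaries the 3' repeat had 17 reads with vreteno knockdown and 2 in the control, a fold of 9.41 (2.23 to 84.0), and the body 5 and 2 reads, a fold of 2.77 (0.453 to 29.1). No fold is given for the 5' repeat in ovaries, where the counts were 2 and 0.

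**Figure D5:**
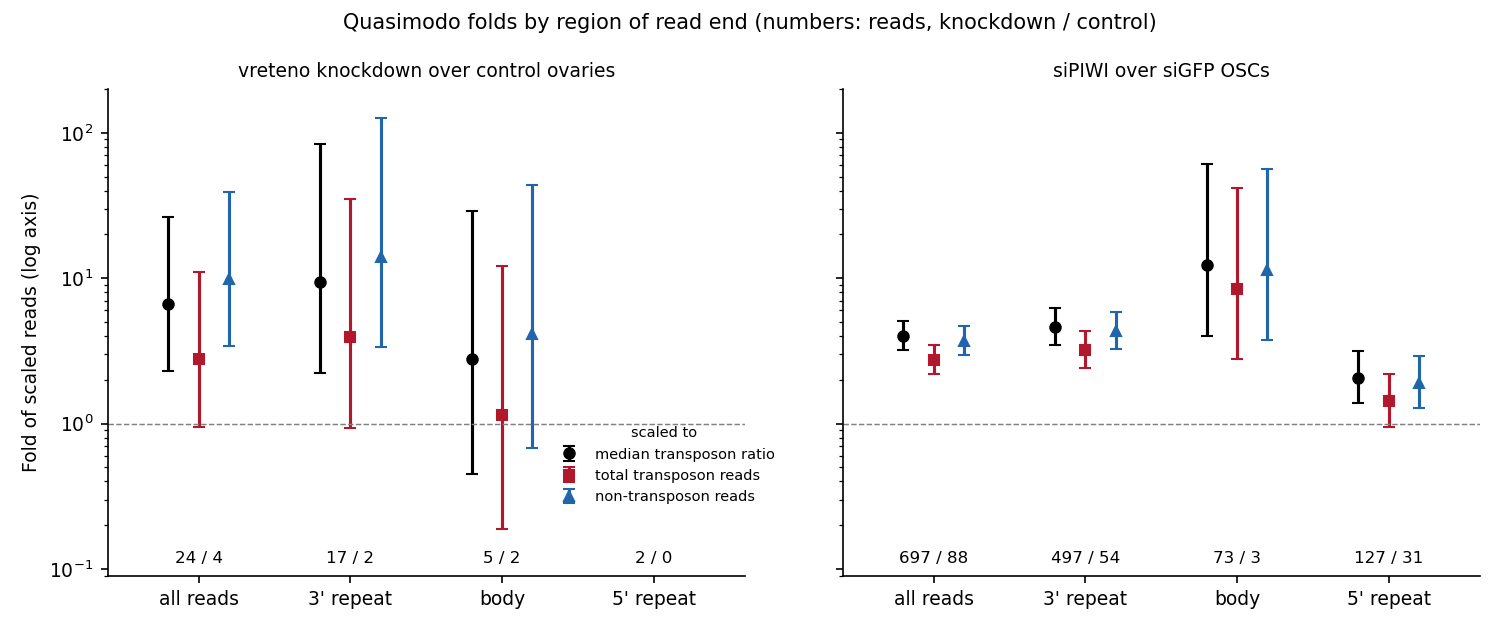
Fold of scaled Quasimodo reads, knockdown over control, on a log axis for all reads and by the region where reads ended, in ovaries (left) and OSCs (right). Symbols show 3 ways of scaling the libraries, bars the 95% counting interval, and the numbers along the bottom the raw reads. In OSCs all 4 folds lie above 1, with the smallest, 2.06 by median scaling, in the 5' repeat. The folds of the 5' and 3' repeats depend on how reads matching both were placed. In ovaries the intervals are wide because the control had 4 reads.

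The transposons whose reads were distributed most like those of Quasimodo were compared over the 4 libraries, by the distance between log2 reads centred on each element's mean. The nearest of 77 was the I-element, a non-LTR retrotransposon active in the germline, at a distance of 1.35, with 9 reads in vreteno knockdown ovaries, 2 in control ovaries, 117 in siPIWI and 23 in siGFP OSCs. Stalker (1.41), flea (1.44), blood (1.47) and Stalker2 (1.64), all LTR elements, followed. These distances lie close together and rest on few control ovary reads, 4 for Quasimodo and 2 for the I-element. The stability of their order was not tested. The median distance over the 77 was 3.52. None of the 5 is on the list of gypsy-group elements with env, whose nearest member was gypsy6, 6th in order at 1.80.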

How the data were processed

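Poly(A) RNA was prepared with the RNA002 direct RNA kit for nanopore sequencing, per the labels' protocols. The authors deposited whole-number counts for every position of 150 reference sequences in each of 4 libraries, without strand. The submitters' processing notes name minimap2; its settings, filters and treatment of multiply matching reads are not given in the sources used here. The counts sit on few positions, so they were read as the 3' ends of reads, an assumption. Intervals take each read as counted 1 time, which the sources do not state. Of the sequences, 124 were transposons. The full depth of the libraries is unknown.

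With 1 library per group no test was possible. Knockdown reads were scaled by the median ratio over the transposons that reached 10 reads in each library (0.903 in ovary, 30 transposons; 1.99 in OSCs, 54). Folds have exact conditional, shares exact Clopper-Pearson, levels exact Poisson and medians order-statistic 95% intervals. The interval of the difference of folds joins both intervals by square-and-add. Of 21 listed gypsy-group names, 17 matched the files. The 5 most similar elements were named by a rule on centred log2(reads + 1); relatives are named where they neighbour Quasimodo in an order, and others were chosen after their values were seen. The element and lists were chosen with earlier results of these data known. Insertions came from the Ensembl annotation of BDGP6, whose copies need not be those of the sampled flies and cells. Scripts used Python 3.11.15, pandas 2.3.3 and scipy 1.17.1 and were tested on simulated data.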

Additional observations from a re-analysis of the deposited data

How the results depend on the processing

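With 60 alternatives to 29 values, 48 stayed within the counting interval, or within 1.5 times for a count, and 12 moved. While 0 were classed as reversed, some changed direction. The difference of the log2 folds, OSC minus ovary, went from -0.74 to 0.40 without scaling and to 0.56 with a pseudocount of 10 reads, all within its interval. The OSC fold of Quasimodo was 2.75 when scaled to total transposon reads and 7.92 without scaling. The ratio of siGFP OSCs to control ovaries went from 0.919 on all transposon reads to 2.71 without copia and 16.9 with the median scaling, so it crossed 1. Of the transposons at least 4-fold higher in ovary, 11 became 7 both with total scaling and with a pseudocount of 10 reads. Counting 5' repeat reads as 3' repeat reads raised the 3' share to 89.5% in siPIWI and 96.6% in siGFP OSCs. A window of 25 nt around position 7370 held 12 of 24 reads in vreteno knockdown ovaries, 46.9% in siPIWI and 40.9% in siGFP OSCs, and one of 10 nt held 20.8%, 22.0% and 23.9%. Alternatives by region, and the OSC and ovary share ratios without copia, were chosen after seeing the data. The 4 reads of the control ovaries limit every ovary value. No paired analysis was possible because each group has 1 library.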

Other observations

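The annotated copies of Quasimodo in the reference genome (BDGP6) were listed, as background to the reads, whose genomic source is unknown. Of 41 insertions, 12 are within 40 nt of the length of the consensus (7352 to 7387 nt), 23 are shorter and 6 longer. The near full-length copies lie on chromosome arms 2L (2 copies), 2R (3), 3L (5) and 3R (1) and on X (1). Of the 12, 3 lie in introns of annotated genes. These are in CG42784 (2L:13449517-13456895) and in jim (3L:22812270-22819638), both on the strand opposite to the gene, and in Ca-alpha1T (X:6171638-6179013), on the strand of the gene. The Ca-alpha1T gene encodes a voltage-gated calcium channel subunit. On 2R a pair of copies overlap by 654 nt, close to the 659 nt of 1 repeat.

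Of all 41, 30 are intergenic, 10 are intronic and 1 overlaps an exon. The last is a 978 nt fragment at X:21633014-21633991, within lncRNA:flam (X:21631891-21790731). This locus, flamenco, is the main source of piRNAs in somatic cells of the ovary. The fragment lies on the minus strand and lncRNA:flam on the plus strand, so a flamenco transcript would be antisense to it. Small RNAs were not analysed here.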
